A study of Salmo salar with 9 samples.

Results

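The contigs described here are matched to genes for protein folding and for entry into the endoplasmic reticulum (ER), measured in the head kidney of Atlantic salmon (Salmo salar). They were chosen by the words of their description (GRP78, endoplasmin, HYOU1, calreticulin, calnexin, protein disulfide-isomerase, XBP1, Sec61, signal recognition particle, translocon-associated protein and the dolichyl-diphosphooligosaccharide complex), and 191 of the 87600 contigs that the authors assembled de novo fitted, all with at least 20 counts over the 9 fish. RNA came from 3 fish per diet, with 1 fish from each tank. The SW2 diet held 10% of the seaweed blend Oceanfeed, the SW1 diet held 10% of the brown seaweed Laminaria digitata, and the FMC diet was the fishmeal control with no seaweed. Feeding lasted 42 days, and every fish, the FMC fish included, had been injected with lipopolysaccharide (LPS, 6 mg per kg) 68 to 70 h before sampling, so no comparison here shows the effect of LPS.

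The ER is where secreted and membrane proteins are threaded through a membrane channel, given sugar chains, folded and joined by disulfide bonds. Its chaperones are made in large amounts by cells that secrete much protein, above all antibody-secreting plasma cells. The sensors of the unfolded protein response and the transcription factor XBP1 raise these chaperones when unfolded protein accumulates. In fish the head kidney is the main blood-forming organ, holds B cells, plasma cells and phagocytes, and also contains the steroid-producing interrenal cells.

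Between 8259299 and 12228633 reads were counted per fish on the de novo reference. Levels below are CPM, the counts of a contig per 1000000 counts of the fish after TMM scaling, and they are compared between fish and not between contigs, whose lengths were not used. The contigs are matched by similarity to genes of several species, so a contig may be a piece, an allele or a duplicate of the named gene. The libraries of FMC fish 2 and SW1 fish 1 differed from the rest in the summed level of red blood cell transcripts. The summed level of the red blood cell list (20 contigs, mostly haemoglobin) was 7585 CPM in SW1 fish 1 and 30546 CPM in FMC fish 2, while it lay between 2231 and 4329 CPM elsewhere. In SW1 fish 1 not all of the list was raised. Its 5-aminolevulinate synthase stood at 741 CPM, against 3181 CPM in FMC fish 2 and 376 to 886 CPM elsewhere. The median contig of the list lay 0.27 below its mean log2 CPM in SW1 fish 1 and 0.31 above it in FMC fish 2. Few kidney tubule and liver marker names were found, with contigs for 1 of 7 and 1 of 5 of them. The 2 kidney tubule contigs summed to 66.2, 90.1 and 93.9 CPM in the SW2 fish, 166, 103 and 131 CPM in the SW1 fish and 46.2, 77.1 and 63.4 CPM in the FMC fish. All SW1 fish thus lay above all others by this sum, which was not tested. Taken singly, 1 of the 2 contigs reached an unadjusted p under 0.05 in edgeR in SW1 vs. FMC and 1 in SW2 vs. SW1. None reached an adjusted p under 0.05. The fish of the diets did not overlap for 1 of the 2 contigs in each of these comparisons. The medians and counts over the ER contigs are given with and without FMC fish 2 and SW1 fish 1. These 2 fish were chosen after their ER values were seen, and not by a measure of library quality. By the TMM scaling factor other libraries stood apart too, with 0.841 in SW1 fish 2 and 0.857 in SW2 fish 1. The factor was 1.191 in SW1 fish 1 and 1.048 in FMC fish 2.

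In SW1 and FMC the summed level of the ER contigs differed far more between fish of the same diet than between diets. The diet means were 9438 CPM in SW2, 8279 CPM in SW1 and 8329 CPM in FMC, with SDs of 1033, 3604 and 3326 CPM. The 3 SW2 fish lay within 1.23-fold of each other. All 191 contigs together summed to 10116, 9948 and 8249 CPM in the SW2 fish, to 4432, 11577 and 8829.5 CPM in the SW1 fish and to 11414, 4805 and 8768 CPM in the FMC fish. The lowest values were those of SW1 fish 1 and FMC fish 2, and the ranges of all diets overlapped. These 2 fish were also the 2 lowest of the 9 for 148 of the 191 contigs (77.5%). Among contigs with a mean of at least 5 CPM this held for 137 of 156 ER contigs (87.8%), against 28.6% of all 24982 contigs at that level. FMC fish 1 was the highest fish for 76 of those 156 ER contigs (48.7%), against 13.7% of all contigs at that level. No test was made of these counts, since the fish were singled out by their values.

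**Figure D1:**
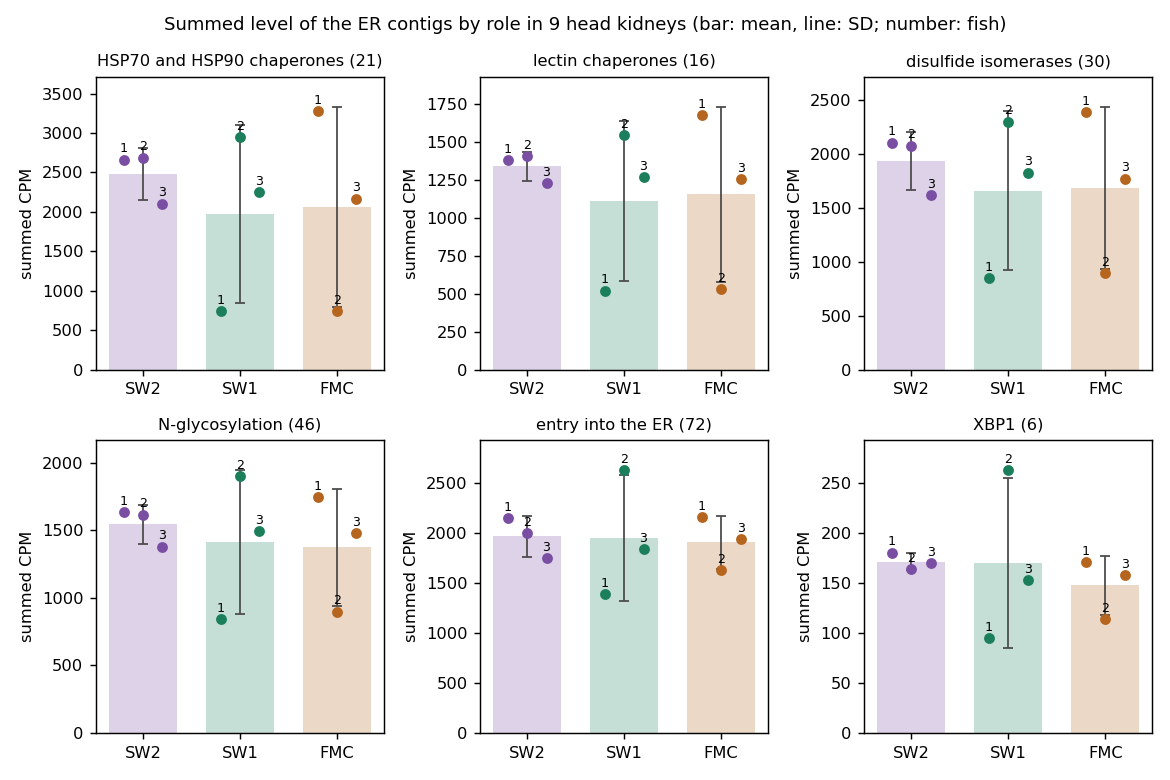
Summed CPM (y axis, from 0) of the ER contigs of each role in each fish, by diet (x axis). Points are fish with their number, bars are means and lines are SD (n = 3), and the number of contigs stands in brackets. SW1 fish 1 and FMC fish 2 lie lowest in every panel, furthest below the others for the chaperones, where they reach 738 and 742 CPM.

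The chaperones of the HSP70 and HSP90 families (21 contigs) showed the widest spread. They summed to 2663, 2687 and 2103 CPM in the SW2 fish, to 738, 2945 and 2250.1 CPM in the SW1 fish and to 3275, 742 and 2168 CPM in the FMC fish. The 3 SW2 fish lay within 1.28-fold of each other. Within FMC, fish 1 was 4.41-fold above fish 2, and within SW1, fish 2 was 3.99-fold above fish 1. HYOU1, a large HSP70-like chaperone that helps to reload GRP78 with nucleotide, had the steepest contrast of the 3 chaperones. Its 7 contigs summed to 329, 286 and 236 CPM in the SW2 fish, to 73.7, 320.3 and 282 CPM in the SW1 fish and to 414, 57.9 and 267 CPM in the FMC fish, a 7.15-fold difference between FMC fish 1 and FMC fish 2.

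GRP78 (also called BiP), the main HSP70 of the ER lumen and the partner that keeps the stress sensors silent, summed over 7 contigs to 766, 798 and 638 CPM in the SW2 fish, to 215, 879 and 769 CPM in the SW1 fish and to 1056, 235 and 728 CPM in the FMC fish. The contrast between FMC fish 1 and 2 was 4.49-fold. Endoplasmin (GRP94), the HSP90 of the ER, was represented by 7 contigs, of which contig 1297 alone had 90801 counts, the most of any ER contig. That contig stood at 1264, 1323 and 1004 CPM in the SW2 fish, at 365, 1384 and 951 CPM in the SW1 fish and at 1501, 362 and 944 CPM in the FMC fish. As with GRP78, the SW2 values lay inside the range of the other diets.

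The lectin chaperones calreticulin and calnexin hold newly glycosylated proteins until they are folded. Their 16 contigs summed to 1381, 1407 and 1229 CPM in the SW2 fish, to 520.5, 1543 and 1269 CPM in the SW1 fish and to 1675, 532 and 1254 CPM in the FMC fish. Soluble calreticulin (10 contigs) was 3.06-fold higher in FMC fish 1 than in FMC fish 2, and membrane-bound calnexin (6 contigs) was 3.44-fold higher. All 6 calnexin contigs were highest in FMC fish 1.

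The protein disulfide-isomerases, which form and reshuffle disulfide bonds, held 30 contigs, of P4HB, PDIA3, PDIA4, PDIA5, PDIA6 and TMX3. They summed to 2108, 2080.4 and 1623 CPM in the SW2 fish, to 851, 2303 and 1829 CPM in the SW1 fish and to 2394, 896 and 1774 CPM in the FMC fish. PDIA6 and PDIA4 varied most, by 4.16-fold and 3.55-fold between FMC fish 1 and 2. PDIA3, the isomerase that works with the lectin chaperones, varied by 2.15-fold, and the founding member P4HB by 2.46-fold. TMX3, an isomerase anchored in the ER membrane, did not share this pattern. Its single contig stood at 76.2, 77.3 and 66.3 CPM in the SW2 fish, at 75.5, 78.6 and 69.3 CPM in the SW1 fish and at 72.7, 67.0 and 75.4 CPM in the FMC fish, the narrowest range of all ER contigs (1.19-fold from lowest to highest).

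The complex that transfers N-linked sugar chains onto new proteins (46 contigs) summed to 1637, 1617 and 1380.0 CPM in the SW2 fish, to 843, 1901 and 1492 CPM in the SW1 fish and to 1745, 899 and 1482 CPM in the FMC fish. Its subunits were not alike. The catalytic subunit STT3A differed by 2.61-fold between FMC fish 1 and 2, OST48 by 2.50-fold and the alternative catalytic subunit STT3B by 2.17-fold, while the ribophorins RPN1 and RPN2 differed by 1.74-fold and 1.64-fold and DAD1, a small membrane subunit, by 1.54-fold. Within SW1, however, DAD1 had the largest contrast of the complex, with 4.14-fold between fish 2 and fish 1.

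Genes for entry into the ER varied least among the roles by their summed levels, with 1.33-fold between FMC fish 1 and 2 and 1.89-fold between SW1 fish 2 and 1. Their 72 contigs summed to 2147, 1993 and 1744 CPM in the SW2 fish, to 1384, 2623 and 1836 CPM in the SW1 fish and to 2154, 1622 and 1931 CPM in the FMC fish. Sec61 beta, a small subunit of the channel, had 236, 239 and 208 CPM in the SW2 fish, 157, 299 and 213 CPM in the SW1 fish and 225, 219 and 231 CPM in the FMC fish, so that FMC fish 2 was not set apart by it. Sec61 alpha, which forms the pore, did differ between these FMC fish, by 1.78-fold over 17 contigs. TRAP alpha, a subunit of the complex that sits beside the channel, differed by 1.04-fold. Of the signal recognition particle, which brings ribosomes to the membrane, SRP72 differed by 2.38-fold, SRP68 by 1.86-fold, SRP54, which binds the signal peptide, by 1.42-fold and SRP9 by 1.18-fold.

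XBP1 itself (6 contigs) had a narrower contrast within FMC than the folding genes. It summed to 180.1, 164 and 170.1 CPM in the SW2 fish, to 94.9, 263 and 152 CPM in the SW1 fish and to 170.4, 114 and 158 CPM in the FMC fish, a 1.50-fold contrast between FMC fish 1 and 2 and a 2.77-fold contrast between SW1 fish 2 and 1. These counts do not separate the spliced from the unspliced XBP1 mRNA.

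The spread of single contigs within a diet was also widest for the chaperones in SW1 and FMC. The median SD of log2 CPM over the 3 fish of a diet was 0.23 in SW2, 0.94 in SW1 and 1.21 in FMC for the HSP70 and HSP90 chaperones, and 0.20 in SW2, 0.55 in SW1 and 0.47 in FMC for the entry genes. XBP1 contigs had the smallest medians of the roles in SW1 and FMC, at 0.25 in SW2, 0.49 in SW1 and 0.35 in FMC. All contigs with at least 5 CPM had medians of 0.19 in SW2, 0.40 in SW1 and 0.35 in FMC. The median over all ER contigs was 0.21 in SW2, close to that of all contigs, and no test was made of the difference in spread with 3 fish per diet.

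**Figure D2:**
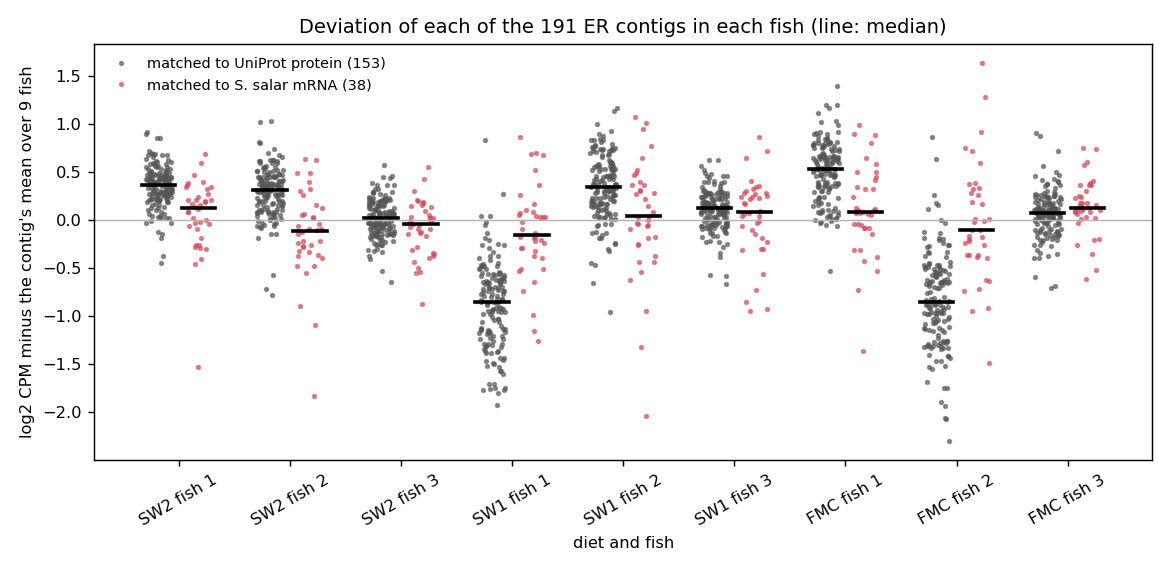
Log2 CPM of each ER contig minus its own mean over the 9 fish (y axis), by fish (x axis), split into the 153 contigs matched to a UniProt protein and the 38 matched to an S. salar mRNA. Black lines are medians, which lie at -0.85 in SW1 fish 1 and -0.85 in FMC fish 2 for the protein matches and at -0.15 and -0.10 for the mRNA matches.

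The pattern divided the contigs by the database entry of their best match, which stands in the same description whose words chose them. Of the 153 ER contigs matched to a UniProt protein, 139 (90.8%) had SW1 fish 1 and FMC fish 2 as their lowest fish, against 9 of the 38 (23.7%) matched to an S. salar mRNA. Over all contigs with at least 5 CPM these shares were 34.0% of 14411 protein matches and 22.6% of 4007 mRNA matches. The ER shares by match had no such level cut, so the 2 sets differ in level as well. Some contigs with adjacent numbers that are matched to the same gene differed in the same way, and the examples were picked after their values were seen. GRP78 contig 2974 (protein match) had 119, 124 and 91.9 CPM in the SW2 fish, 23.5, 123 and 107 CPM in the SW1 fish and 175, 19.2 and 99.7 CPM in the FMC fish. GRP78 contig 2973 (mRNA match) had 87.1, 81.8 and 96.3 CPM in the SW2 fish, 84.2, 205 and 151 CPM in the SW1 fish and 142, 106 and 183 CPM in the FMC fish. FMC fish 1 was thus 9.13-fold above FMC fish 2 by contig 2974 and 1.33-fold by contig 2973. SRP receptor alpha, the docking protein of the signal recognition particle, even ran opposite ways, with 21.4 CPM in FMC fish 1 and 10.4 CPM in FMC fish 2 for contig 21711 (protein match) and 5.65 and 26.0 CPM in the same fish for contig 21710 (mRNA match). Other such neighbours did not differ in this way. RPN1 contig 9064 (mRNA match) lay 1.26 and 1.48 below its mean log2 CPM in SW1 fish 1 and FMC fish 2, further than RPN1 contig 9065 (protein match) at 0.85 and 1.20 below. SRP54 contig 7674 (mRNA match) was low in both fish, while SRP54 contig 7675 (protein match) was not low in FMC fish 2.

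The first diet question was whether L. digitata changed these genes. In SW1 vs. FMC edgeR's quasi-likelihood test called none of the 191 ER contigs at an adjusted p under 0.05, where 0.00343% of the 87494 contigs tested did. DESeq2 and limma voom called none either. At an unadjusted p under 0.05 there was 1 ER contig, lower in SW1 (0.524%, against 1.68% of all contigs, of which 1.03% were higher and 0.649% lower), and the fish of the diets did not overlap for 2 ER contigs (1.05%, against 5.53%). The median log2 fold change was -0.05 over the ER contigs and -0.01 over all contigs. By role the medians were -0.14 for the HSP70 and HSP90 chaperones, -0.24 for the lectin chaperones, -0.01 for the disulfide isomerases, -0.13 for N-glycosylation, -0.02 for entry and 0.20 for XBP1. Without FMC fish 2 and SW1 fish 1 together the role medians lay between -0.26 (lectin chaperones) and 0.36 (XBP1). The median over all ER contigs depended on single fish. It was -0.33 without FMC fish 2 and -0.32 without SW1 fish 2, but 0.20 without FMC fish 1 and 0.20 without SW1 fish 1. Without FMC fish 2 and SW1 fish 1 together it was -0.05, where 2 contigs were higher and 6 contigs lower by the unadjusted p, and none by the adjusted p, while 4.56% of all contigs reached that unadjusted p. Those at an unadjusted p numbered 6 without FMC fish 2 (2.88% of all contigs did), 3 without SW1 fish 1 (3.02%), 0 without FMC fish 1 (2.12%) and 0 without FMC fish 3 (1.67%).

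In SW2 vs. FMC, the comparison for the seaweed blend, again no ER contig was called at an adjusted p under 0.05 (0% of the 87309 contigs tested by edgeR did, and DESeq2 called no ER contig, while limma voom called GRP78 contig 2973). At an unadjusted p under 0.05 there were 1 higher and 3 lower ER contigs (2.09%, against 6.02% of all contigs, of which 2.39% were higher and 3.63% lower), and the diets did not overlap for 8 (4.19%, against 11.7%). The fitted change was above 0 for 148 of the 191 contigs (77.5%), against 50.3% of all contigs, and its median was 0.15, against 0.00 for all contigs. These shares mix the kinds of match, and most ER contigs were protein matches. Among protein matches, 88.2% of ER contigs lay above 0, against 65.4% of all contigs. Among S. salar mRNA matches, 34.2% of ER contigs did, against 40.7% of all contigs. By role the medians were 0.26 for the HSP70 and HSP90 chaperones, 0.21 for the lectin chaperones, 0.21 for the disulfide isomerases, 0.16 for N-glycosylation, 0.09 for entry and 0.10 for XBP1. This shift rested on FMC fish 2. Without that fish the median was -0.09, with 0 higher and 6 lower contigs at an unadjusted p under 0.05, where 7.90% of all contigs reached that p, and the median of every role was below 0, between -0.19 (HSP70 and HSP90 chaperones) and -0.02 (XBP1). Without FMC fish 1 it was 0.47, with 36 higher and 6 lower contigs, where 10.8% of all contigs reached that p, and still none reached an adjusted p under 0.05. Without SW2 fish 2, 1 ER contig was left at an unadjusted p under 0.05, and 3.49% of all contigs.

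The seaweed diets were also set against each other. In SW2 vs. SW1 no ER contig passed an adjusted p under 0.05 in edgeR, which called 0.00114% of the 87598 contigs, or in DESeq2. Limma voom called 5 ER contigs, in a fit that called 6159 contigs in all. At an unadjusted p under 0.05 edgeR gave 1 higher and 3 lower ER contigs (2.09%, against 5.8% of all contigs, of which 2.05% were higher and 3.74% lower). The fish of the diets did not overlap for 19 ER contigs (9.95%, against 13.6%). The median was 0.24 over the ER contigs and -0.01 over all contigs, and it was 0.44 for the HSP70 and HSP90 chaperones, 0.32 for the lectin chaperones, 0.28 for N-glycosylation, 0.26 for the disulfide isomerases, 0.11 for entry and 0.02 for XBP1. It rested on SW1 fish 1, without which the median was -0.04, while without SW1 fish 2 it was 0.50. Without SW1 fish 1 the role medians lay between -0.20 (XBP1) and 0.08 (HSP70 and HSP90 chaperones). The contigs at an unadjusted p under 0.05 numbered 8 without FMC fish 2 (7.08% of all contigs), which adds only to the estimate of spread here, 2 without SW2 fish 1 (3.49%), 0 without SW2 fish 2 (3.42%) and 2 without SW2 fish 3 (5.59%).

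Over both seaweed diets vs. FMC, the last contrast, edgeR (0% of 87598 contigs), DESeq2 and limma voom called 0 of 191 ER contigs at an adjusted p under 0.05, and in edgeR 1 higher and 3 lower ones reached an unadjusted p under 0.05 (2.09%, against 3.37% of all contigs, of which 1.39% were higher and 1.98% lower). The diets overlapped for every ER contig, while 1.38% of all contigs did not overlap. The median was 0.04, against -0.02 for all contigs. It was 0.34 without FMC fish 1 and -0.21 without FMC fish 2. The contigs at an unadjusted p under 0.05 numbered 10 without FMC fish 1 (5.34% of all contigs), 8 without SW1 fish 1 (4.69%), 2 without SW1 fish 3 (2.83%) and 1 without SW2 fish 2 (2.62%).

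**Figure D3:**
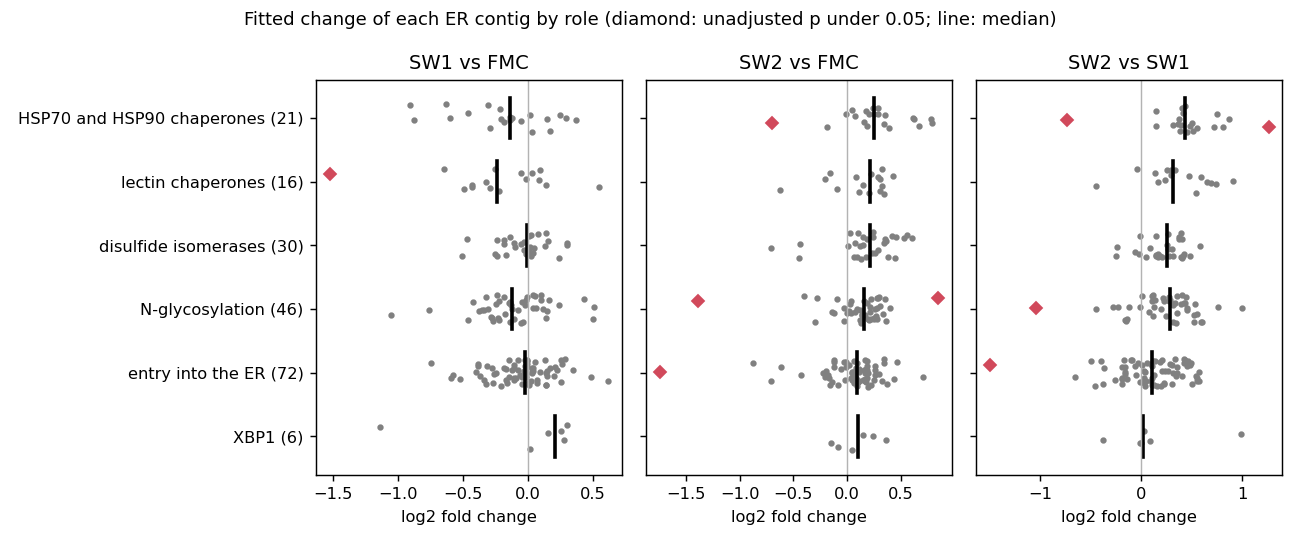
Fitted log2 fold change (x axis) of each ER contig by role (y axis, number of contigs in brackets) in SW1 vs. FMC, SW2 vs. FMC and SW2 vs. SW1, from edgeR. Black lines are medians and red diamonds are contigs with an unadjusted p under 0.05, of which there are 1, 4 and 4. Most points of the SW2 comparisons lie right of 0, and no contig passed an adjusted p under 0.05.

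The contigs with the smallest p-values are given by fish, although none passed the adjusted threshold in edgeR. GRP78 contig 2973, with the values above, had a mean and SD (n = 3) of 88.4 ± 7.35 CPM in the SW2 fish, 147 ± 60.6 CPM in the SW1 fish and 143 ± 38.2 CPM in the FMC fish. All SW2 fish lay below all FMC fish (log2 fold change -0.70, SE 0.24, edgeR adjusted p = 0.816), and SW1 fish 1 lay among the SW2 fish. The other 6 GRP78 contigs had fitted changes of 0.08 to 0.39 in SW2 vs. FMC with all fish included. Of these GRP78 contig 2614, with the most counts, was at 245, 265 and 204 CPM in the SW2 fish, 47.6, 237 and 214 CPM in the SW1 fish and 325, 43.8 and 175 CPM in the FMC fish (0.39, SE 0.50, edgeR adjusted p = 0.952).

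RPN1 contig 4689, matched to ribophorin I, had 1.45, 0.746 and 0.903 CPM in the SW2 fish, 1.44, 2.94 and 2.18 CPM in the SW1 fish and 2.33, 3.12 and 2.80 CPM in the FMC fish. The SW2 fish lay below all FMC fish and the change was -1.39 (SE 0.36, edgeR adjusted p = 0.816), with 7 to 14 counts per SW2 fish. The neighbouring RPN1 contig 4690, with 3212 counts in all, changed by 0.20 (SE 0.32, edgeR adjusted p = 0.961) and its diets overlapped, as they did for RPN1 contig 11374, the RPN1 contig with the most counts.

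SRP54 contig 11043 had 3, 2 and 14 counts in the SW2 fish, 36, 9 and 20 counts in the SW1 fish and 20, 29 and 15 counts in the FMC fish. All SW2 fish lay below all FMC fish (-1.74, SE 0.60, edgeR adjusted p = 0.816), although SW2 fish 3, at 1.40 CPM, lay close to the lowest FMC fish at 1.66 CPM and above SW1 fish 2 at 1.20 CPM. SRP54 contig 3949, with 4291 counts, changed by 0.33 (SE 0.23, edgeR adjusted p = 0.903), the other way.

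STT3B contig 47145 was the only ER contig with a higher level in SW2 at an unadjusted p under 0.05 against FMC. It had 2.80, 3.31 and 3.31 CPM in the SW2 fish, 2.27, 2.81 and 2.35 CPM in the SW1 fish and 1.58, 1.27 and 2.36 CPM in the FMC fish. The SW2 fish lay above all FMC fish (0.85, SE 0.33, edgeR adjusted p = 0.820). The STT3B contig with the most counts, 2008, had 99.2 ± 10.5 CPM in SW2, 69.0 ± 13.7 CPM in SW1 and 80.4 ± 32.1 CPM in FMC, and its change in SW2 vs. FMC was 0.30 (SE 0.28).

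HYOU1 contig 26273 was higher in SW2 than in SW1 at an unadjusted p under 0.05, with 3.01, 3.84 and 2.01 CPM in the SW2 fish, 1.10, 1.07 and 1.48 CPM in the SW1 fish and 3.16, 0.925 and 1.46 CPM in the FMC fish. The SW2 fish lay above all SW1 fish (1.26, SE 0.45, edgeR adjusted p = 0.858). HYOU1 contig 1041, with 14057 counts, changed by 0.15 (SE 0.63) in the same comparison. With all fish included, all 7 HYOU1 contigs lay above 0, between 0.15 and 1.26, with a median of 0.76. The fish of the 2 diets did not overlap for 3 of the 7, where 13.6% of all contigs did not overlap. The count was 0 of 7 contigs for GRP78 and 0 of 7 for GRP94. HYOU1 was not alone in this, since the count was 4 of 6 for calnexin, 3 of 11 for STT3A and 3 of 10 for STT3B. The contigs of GRP94, calnexin and STT3B, among others, also all lay above 0.

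CALR contig 34152 was the single ER contig at an unadjusted p under 0.05 in SW1 vs. FMC, with 12, 9 and 12 counts in the SW2 fish, 4, 8 and 7 counts in the SW1 fish and 31, 5 and 18 counts in the FMC fish. FMC fish 2 lay among the SW1 fish, and the change was -1.52 (SE 0.63, edgeR adjusted p = 1.00). The main calreticulin contig, 258, had 493, 485 and 425 CPM in the SW2 fish, 183, 589 and 479 CPM in the SW1 fish and 597, 209.7 and 460.4 CPM in the FMC fish. It changed by 0.15 in SW2 vs. FMC (SE 0.32) and by -0.02 in SW1 vs. FMC (SE 0.49).

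**Figure D4:**
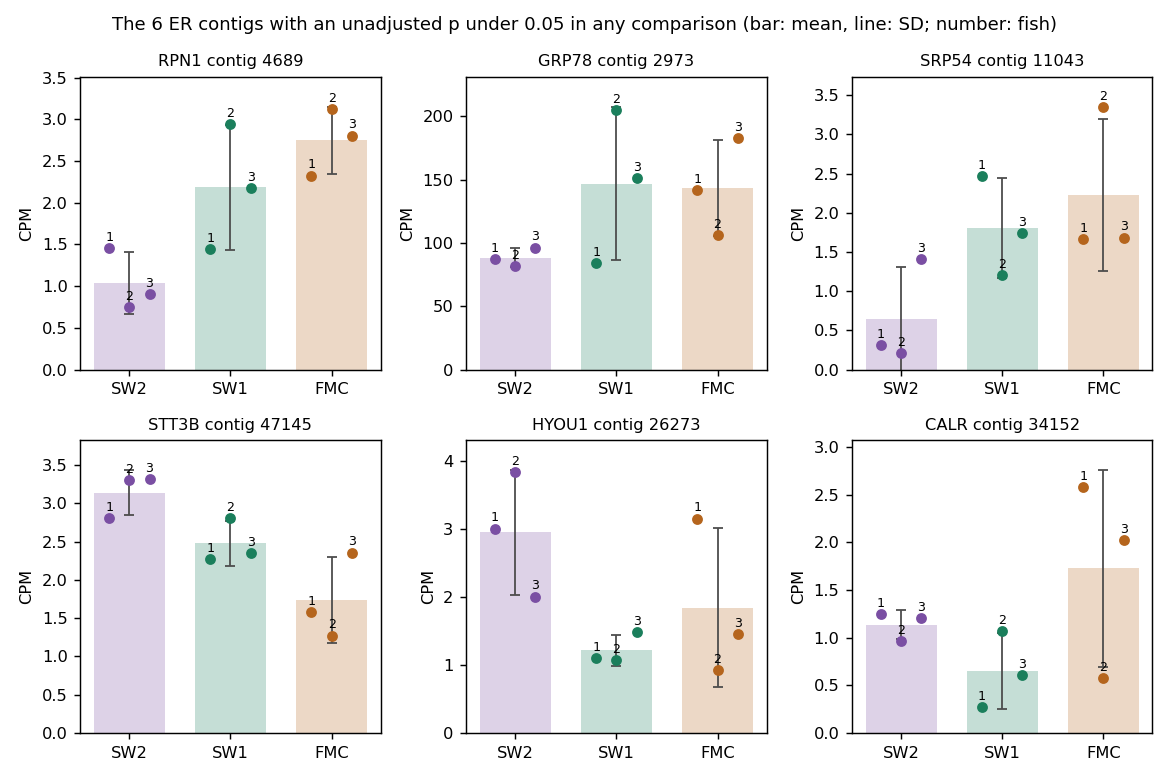
CPM (y axis, from 0) of the 6 ER contigs with an unadjusted p under 0.05 in any comparison, by diet (x axis). Points are fish with their number, bars are means and lines are SD (n = 3), not drawn below 0. The 3 SW2 fish lie below all 3 FMC fish for GRP78 contig 2973, RPN1 contig 4689 and SRP54 contig 11043, and above them for STT3B contig 47145.

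Contigs matched to S. salar mRNAs also leaned another way between diets, and the 3 lower contigs of SW2 vs. FMC were all of that kind. In that comparison the median was -0.09 over the 38 ER contigs matched to an S. salar mRNA and 0.19 over the 153 matched to a UniProt protein. The same held for all contigs, with -0.10 over 13587 mRNA matches and 0.11 over 31763 protein matches. The ER contigs thus shared this lean with contigs of any function, and these medians were not computed without FMC fish 2.

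A further list of 300 contigs for other steps of the ER pathway was read beside them. By edgeR's unadjusted p under 0.05, 2 contigs were higher and 4 contigs lower in SW2 vs. FMC (2.0%, against 6.02% of all contigs). In SW2 vs. SW1 6 were higher and 3 lower (3.0%, against 5.8%). Over both seaweed diets vs. FMC 2 were higher and 0 lower, where 3.37% of all contigs reached that p. None differed in SW1 vs. FMC, where 1.68% of all contigs did. The adjusted p called none of the list in any comparison. The medians of SW2 vs. FMC were 0.24 for co-chaperones and redox enzymes (49 contigs), 0.18 for export to the Golgi (132), 0.16 for membrane entry and processing (20), 0.06 for the unfolded protein response and its sensors (33) and 0.02 for ER-associated degradation (66). They include FMC fish 2 and were not computed without it.

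By fish the further lists differed in how far they followed the ER contigs. Co-chaperones and redox enzymes summed to 1514, 1535 and 1167 CPM in the SW2 fish, to 837, 1776 and 1286 CPM in the SW1 fish and to 1657, 853 and 1228 CPM in the FMC fish. Among them DnaJ homolog subfamily B member 11, a co-chaperone of GRP78, was widest, with 259, 209.5 and 173 CPM in the SW2 fish, 48.6, 359.6 and 227 CPM in the SW1 fish and 328, 56.3 and 204 CPM in the FMC fish. The pair of fish was lowest for 29 of the 49 contigs of this list (59.2%), but for only 5 of the 33 contigs of the unfolded protein response and its sensors (15.2%). Over all contigs with at least 5 CPM the share was 28.6%, while these lists had no such level cut. The unfolded protein response list had 640.2, 643 and 610.0 CPM in the SW2 fish, 509.8, 524 and 595 CPM in the SW1 fish and 679, 482 and 605 CPM in the FMC fish. Of these sensors ATF6, which induces chaperones, had 138, 146 and 128 CPM in the SW2 fish, 75.2, 122 and 125 CPM in the SW1 fish and 164, 66.2 and 107 CPM in the FMC fish, while IRE1, the enzyme that splices XBP1, had 86.4, 89.3 and 81.2 CPM in the SW2 fish, 93.2, 66.0 and 72.2 CPM in the SW1 fish and 80.8, 73.5 and 79.2 CPM in the FMC fish.

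The pathway contigs with the smallest p-values were of other steps. ER lumen protein retaining receptor 2 (contig 5461), which returns escaped chaperones to the ER, had 4.77, 3.73 and 3.31 CPM in the SW2 fish, 7.07, 7.09 and 10.02 CPM in the SW1 fish and 6.31, 5.66 and 8.64 CPM in the FMC fish. All SW2 fish lay below all others by this contig, with a change of -0.80 (SE 0.28, edgeR adjusted p = 0.816) against FMC and of -1.03 (SE 0.29, edgeR adjusted p = 0.814) against SW1. The 3 contigs described as ER lumen protein retaining receptor together summed to 119, 113 and 116 CPM in the SW2 fish. They summed to 73.1, 198 and 139 CPM in the SW1 fish and to 144, 87.6 and 133 CPM in the FMC fish, so the diets overlapped. ATF-4 contig 4776, a factor of the stress response, had 1.66, 2.03 and 0.903 CPM in the SW2 fish, 3.78, 2.81 and 4.70 CPM in the SW1 fish and 1.74, 4.39 and 4.60 CPM in the FMC fish, and SW2 fish 2 overlapped with FMC. All 6 ATF-4 contigs summed to 249, 231 and 219 CPM in the SW2 fish. Their sums were 160, 181 and 231 CPM in the SW1 fish and 271, 173 and 233 CPM in the FMC fish. Signal peptidase complex subunit 2 (contig 14589) changed by -0.72 in SW2 vs. FMC (SE 0.29), and coatomer subunit beta' (contig 76631) by 2.53 (SE 0.57) with 12, 10 and 8 counts in the SW2 fish, 6, 0 and 5 counts in the SW1 fish and 2, 2 and 1 counts in the FMC fish. The 7 signal peptidase contigs together summed to 776, 702 and 692 CPM in the SW2 fish and to 845, 447 and 745 CPM in the FMC fish, which overlapped. In SW2 vs. SW1 an ER degradation-enhancing alpha-mannosidase (contig 47818) changed by -0.98 (SE 0.36) and Sec23A (contig 34197), of the coat that buds from the ER, by 1.33 (SE 0.49). Another coatomer beta' contig, 83193, changed by 1.32 (SE 0.60) over both seaweed diets vs. FMC. For the coatomer, mannosidase and Sec23 names, too, the summed contigs overlapped between the diets compared.

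**Figure D5:**
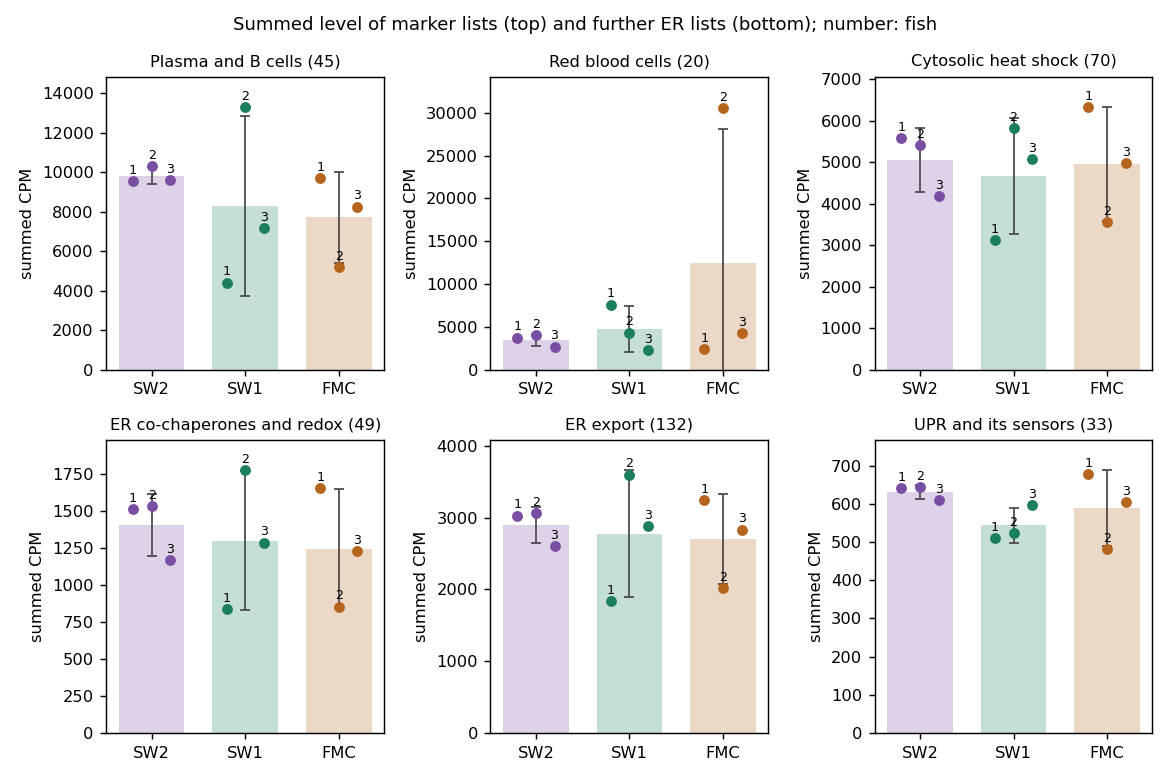
Summed CPM (y axis, from 0) of marker lists (top row) and of further ER lists (bottom row) in each fish by diet (x axis), with the number of contigs in brackets, means as bars and SD as lines (n = 3). SW1 fish 1 and FMC fish 2 are lowest for plasma and B cells (4408 and 5196 CPM) and cytosolic heat shock (3111 and 3557 CPM), and FMC fish 2 is highest for red blood cells (30546 CPM).

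Of the 6 plasma and B cell marker names found, 2 were low in the same fish, 1 of them abundant, and the others did not all follow. The list for plasma and B cells (45 contigs, 6 of its 9 marker names found) summed to 9540.4, 10315 and 9584 CPM in the SW2 fish, to 4408, 13308 and 7183 CPM in the SW1 fish and to 9679, 5196 and 8259 CPM in the FMC fish, so that its 2 lowest fish were again SW1 fish 1 and FMC fish 2. Most of it was the Ig mu chain, with 8995, 9779 and 9027 CPM in the SW2 fish, 4026, 12673 and 6737 CPM in the SW1 fish and 9114, 4812 and 7732 CPM in the FMC fish. Contigs described as Ig heavy chain (16 contigs) followed it, with 152 CPM in SW1 fish 1, 185 CPM in FMC fish 2 and 214 to 417 CPM elsewhere. The other markers did not all follow it. Those described as immunoglobulin heavy chain (6 contigs) had 187 CPM in SW1 fish 1 and 168 CPM in FMC fish 2, with 160 to 222 CPM elsewhere. SW1 fish 1 and FMC fish 2 were the lowest pair for 12 of the 45 contigs (26.7%), close to the share over all contigs. The Ig kappa chain had 27.4 CPM in SW1 fish 1 and 27.3 CPM in SW1 fish 2, and PRDM1, the regulator of plasma cells, had 11.5 CPM in SW1 fish 1 and 7.62 CPM in SW1 fish 2 but was lowest in FMC fish 2 at 3.93 CPM. The single Ig lambda contig was highest in SW1 fish 1 at 3.98 CPM and lowest in SW1 fish 2 at 0.936 CPM. The cytosolic heat shock list (70 contigs), which is no cell type, summed to 5575, 5402 and 4171 CPM in the SW2 fish, to 3111, 5816 and 5079.7 CPM in the SW1 fish and to 6317, 3557 and 4981 CPM in the FMC fish. SW1 fish 1 and FMC fish 2 were the lowest pair for 33 of these 70 contigs (47.1%), a larger share than in the plasma and B cell list. The sum of the neutrophil markers (25 contigs) was highest in the same 2 fish, at 12007 CPM in SW1 fish 1 and 14127 CPM in FMC fish 2. Elsewhere it was 8012 to 11446 CPM. Most single contigs did not follow this sum. Their median deviation from their mean log2 CPM was 0.02 in SW1 fish 1 and -0.06 in FMC fish 2, with -0.22 to 0.21 elsewhere. Interrenal markers (17 contigs) followed another order, with 3126, 1965 and 4415 CPM in the SW2 fish, 1345, 2495 and 2538 CPM in the SW1 fish and 583, 2681 and 1369 CPM in the FMC fish. The part of each list in the ER values was not tested, and in whole tissue fewer cells of a type and less RNA per cell cannot be told apart.

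Counts on the authors' other reference, 48223 cDNA sequences of S. salar from NCBI, were read with the same words. Of 99 matching sequences 26 had at least 20 counts, and edgeR called none of them at an adjusted p under 0.05. By the unadjusted p there were 0 in SW1 vs. FMC (1.81% of all sequences), 1 in SW2 vs. FMC (5.68%), 2 in SW2 vs. SW1 (5.63%) and 1 over both seaweed diets vs. FMC (3.3%). For 14 of the 26 (53.8%), taken without a level cut, SW1 fish 1 and FMC fish 2 were the 2 lowest fish. This held for 18.3% of all sequences with at least 5 CPM there, and for 77.5% of the 191 de novo ER contigs. HYOU1 had 153, 147 and 120.0 CPM in the SW2 fish, 31.4, 204 and 133 CPM in the SW1 fish and 204, 22.6 and 134 CPM in the FMC fish, and calreticulin had 1040.3, 1116 and 922 CPM in the SW2 fish, 398, 1030.2 and 967 CPM in the SW1 fish and 1259, 415 and 882 CPM in the FMC fish. The median log2 fold change was 0.20 in SW2 vs. FMC and -0.02 in SW1 vs. FMC, with all fish included. The main RPN1 sequence there had 399, 390 and 298 CPM in the SW2 fish, 160.0, 249 and 278 CPM in the SW1 fish and 446, 138 and 257 CPM in the FMC fish, with a change of 0.40 in SW2 vs. FMC (SE 0.39). The other RPN1 sequences changed by 0.17 (SE 0.37) and, with 261 counts in all, by -0.55 (SE 0.47).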

How the data were processed

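Head kidney RNA of 9 fish was measured by RNA-seq. The authors aligned the reads with TopHat2 2.0.5, handled alignments with SAMtools 0.1.18 and counted them per sequence with HTSeq 0.5.3p9, per the submitters' processing notes. The deposited values are raw read counts per fish on a de novo reference (87600 contigs) and an NCBI cDNA reference (48223 sequences). The deposited tables also hold DESeq fold changes and p-values of each seaweed diet against FMC, which were not used. On the de novo reference, 11394 contigs without a description (2.235% of counts) stayed in all totals and tests.

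EdgeR 4.0.16 tested every contig whose counts summed to at least 10 across the fish used (R 4.3.3, TMM, quasi-likelihood test), and p-values were adjusted over all contigs by Benjamini-Hochberg. SW1 vs. FMC and SW2 vs. FMC used 6 fish each, as the study did, and the other 2 comparisons used all 9 fish. Log2 CPM used a prior count of 2. The SE is the log2 fold change divided by the square root of F. DESeq2 1.42.0, limma 3.58.1 (voom), other scalings and filters, a replicate block and leaving out fish were the alternatives. The fit was tested on simulated data.

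Members, roles and lists were chosen with earlier results of these data known. A run of joining characters (_) in a description was read as 1 space. Named are the contigs with the most counts of a gene, up to 6 contigs per comparison with the smallest unadjusted p under 0.05, contigs with 0 to 2 counts in a fish and 30 or more in another, and up to 4 of the further pathway list per comparison. Contigs 2974, 4690, 7674, 7675, 9064, 9065, 21710 and 21711 were named after their values were seen. Counts differed between fish of each diet by more than sampling noise. Contigs carry no coordinates, and no sequences were used here. Counts limit precision only for the contigs with few reads.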

Additional observations from a re-analysis of the deposited data

How the results depend on the processing

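EdgeR called no ER contig at an adjusted p under 0.05 under any scaling, filter, reference or left-out fish, so there was no called direction that could reverse. The median log2 fold change of the ER contigs did change sign in every comparison when single fish were left out, as given below. Limma voom with quality weights called 1 ER contig in SW2 vs. FMC and 5 in SW2 vs. SW1, and its counts at an unadjusted p under 0.05 were 11 in SW1 vs. FMC, 20 in SW2 vs. FMC, 24 in SW2 vs. SW1 and 18 over both seaweed diets vs. FMC, where 17.9%, 17.6%, 25.8% and 17.5% of all contigs reached that p in the same order. On the NCBI reference these counts were 0, 1, 2 and 1 in the same order. The stricter filter (10 counts in each of 3 fish) gave 0 in SW1 vs. FMC (1.14% of all contigs). Using only the 2 sides gave 9 in SW2 vs. SW1 (6.60%) and 1 over both diets (3.01%). No scaling gave 2 over both diets (2.86%), where it also moved the median log2 fold change of the ER contigs to -0.03. Reading each joining character (_) in a description as a space of its own left 170 contigs, with 2 in SW2 vs. FMC (6.02% of all contigs) and 2 in SW2 vs. SW1 (5.8%). Without FMC fish 2 and SW1 fish 1 together, an alternative chosen after seeing the data, as was that reading, the counts were 8 in SW1 vs. FMC, 6 in SW2 vs. FMC, 10 in SW2 vs. SW1 and 5 over both diets. Without these 2 fish 4.56%, 7.90%, 12.5% and 4.56% of all contigs reached that p, in the same order. The medians of the SW2 comparisons were then -0.086 against FMC and -0.041 against SW1. The causes were not tested.

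Leaving out 1 fish at a time gave 0 to 6 contigs at an unadjusted p under 0.05 in SW1 vs. FMC, 1 to 42 in SW2 vs. FMC, 0 to 8 in SW2 vs. SW1 and 1 to 10 over both diets. The medians ran between -0.33 and 0.20 in SW1 vs. FMC, -0.086 and 0.47 in SW2 vs. FMC, -0.040 and 0.50 in SW2 vs. SW1, and -0.21 and 0.34 over both diets. The fish that carry the same number did not deviate together (correlations of -0.49 to 0.32), and with the replicate number as a block the counts were 0 in SW1 vs. FMC, 9 in SW2 vs. FMC, 3 in SW2 vs. SW1 and 2 over both diets. With that block 0.98%, 5.42%, 5.15% and 2.42% of all contigs reached that p, in the same order.

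FMC fish 2 and SW1 fish 1 were the 2 lowest for 147 of the 191 ER contigs with DESeq2's size factors and for 124 with no scaling. Among contigs with at least 5 CPM, the size factors gave 86.5% of ER contigs, against 28.2% of all contigs. No scaling gave 74.4% of ER contigs at that level, against 19.9% of all contigs. With 3 fish per diet and a median SE of 0.34 in SW2 vs. FMC, small shifts of single contigs were not detectable.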

Other observations

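On the NCBI reference, 1 of the 2 sequences of TRAP gamma, a subunit of the complex beside the translocation channel, was at 0 counts in all 3 SW2 fish. That sequence had 22, 25 and 35 counts in the SW1 fish and 31, 13 and 25 counts in the FMC fish. The other sequence had 13, 4 and 3 counts in the SW2 fish, 3, 5 and 7 counts in the SW1 fish and 13, 2 and 6 counts in the FMC fish. The first was named after its values were seen. With 3 counts over the 3 SW2 fish as a floor, the level of the first was at least 23.1-fold lower in SW2 than in SW1 and at least 22.2-fold lower than in FMC. The edgeR adjusted p was 0.462 against FMC and 0.155 against SW1. Of the 48223 sequences only this first was at 0 in a whole diet with at least 10 counts in each other fish, and no de novo contig did this. The TRAP gamma contigs of the de novo reference summed to 77.4, 74.4 and 63.5 CPM in the SW2 fish, to 31.6, 104 and 70.7 CPM in the SW1 fish and to 76.4, 47.6 and 66.5 CPM in the FMC fish, so the absence was not seen there.

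OST4, a small subunit of the glycosylation complex, had 88, 135 and 50 counts in the SW2 fish, 1, 87 and 147 counts in the SW1 fish and 1, 106 and 54 counts in the FMC fish for its main NCBI sequence. The fish with a single count were SW1 fish 1 and FMC fish 1, and FMC fish 2, which was low for most ER contigs, was not low for it. The other OST4 sequence had 29 counts in all. It had 2, 4 and 1 counts in the SW2 fish, 6, 2 and 6 counts in the SW1 fish and 4, 3 and 1 counts in the FMC fish. SW1 fish 1 and FMC fish 1 were thus not low for that sequence.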
